A study of Rattus norvegicus with 18 samples.

Results

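The 7 genes of plasma carrier proteins were followed in rat primary hepatocytes, namely Alb, Ttr, Rbp4, Ahsg, Gc, Afp and Ambp. Their members on the array were the probe sets that the platform annotation gives exactly 1 gene symbol, where that symbol is 1 of the 7. These were 9 probe sets of 31042, and 7 genes of the 14217 that the array names in this way. Each gene was read through the brightest of its probe sets on average, called its main one, and Alb and Gc each had 1 further probe set, which is given beside it. A further probe set that carries the symbols Mt1f, Ttr and Mt1 together was not read as Ttr.

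The cells were hepatocytes of Wistar rat liver, the main cell type of the organ, which had attached to dishes for 24 h before treatment in a medium with insulin and hydrocortisone. They received 30 µM EMD or 100 µM EMD for 24 or 72 h, or 0.1% dimethyl sulfoxide (DMSO) as the vehicle control for the same times. EMD is an agonist of both PPARα, the nuclear receptor that turns on fatty acid oxidation in liver, and PPARγ, which drives fat cell differentiation. Each of the 6 groups held 3 arrays. By the study's methods the cells of each animal received all treatments and the replicates were biological, but the labels call only the EMD arrays biological replicates and tie no array to an animal, so the p-values rest on the spread between these arrays. In bulk RNA of this kind, fewer cells of a type and less RNA per cell cannot be told apart.

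The liver makes most of the carrier proteins of blood plasma. Albumin (Alb) is the most abundant of them and binds fatty acids, bilirubin and drugs. It belongs to a gene family with Gc, the vitamin D binding protein, and Afp, alpha-fetoprotein, the albumin of the fetus, which the liver largely switches off after birth and which returns in regeneration and in liver tumours. Rbp4 carries retinol out of the liver in a complex with transthyretin (Ttr), which also carries thyroid hormone. Ahsg, fetuin-A, holds calcium phosphate in solution and can inhibit the insulin receptor. Ambp is cut into alpha-1-microglobulin, which binds haem, and bikunin, a protease inhibitor that is joined to the heavy chains of the inter-alpha-trypsin inhibitors, made from Itih1, Itih2 and Itih3. Several of these genes are known as targets of the liver-enriched transcription factors HNF1, HNF4, FOXA and C/EBP.

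The array values were log2 expression estimates between 2.39 and 14.77, array medians lay between 5.05 and 5.11, and the lowest correlation between any pair of arrays was 0.961. Levels of different probe sets are not on a common scale, so all changes below are within a probe set. The array median and ranks of brightness serve only as a rough guide to level. Changes are log2 differences between group means ± the standard error (SE) of limma's fit over all 18 arrays. A gene is said to rise or fall where its p-value, corrected over all 31042 probe sets with the Benjamini-Hochberg method, was under 0.05. Of 11 hepatocyte markers measured, 0 lay under the array median of 5.10 on average. Of the markers of other liver cells, 8 of 10 for stellate cells and fibroblasts, 6 of 9 for macrophages, 6 of 6 for endothelial cells and 4 of 6 for cholangiocytes lay under it.

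At 72 h, Ahsg, Ambp, Ttr and Gc fell with both doses of EMD, and none of the 7 genes rose. These were 4 of 7 genes lower with 30 µM, where 9.22% of all probe sets were called lower and 7.88% higher (17.1% in all), and 4 of 7 lower with 100 µM, where 9.68% were lower and 7.42% higher (17.1% in all). The median change of the 7 genes was -0.25 with 30 µM and -0.46 with 100 µM, beside 0.01 and 0.02 over all probe sets. The count at 30 µM was 1 to 3 with any 1 array left out and 1, Ahsg, after cyclic loess, while that at 100 µM stayed at 4 with any 1 array left out. At 24 h, Rbp4 alone passed, with a rise at 30 µM (1 of 7 higher and 0 lower, where 3.35% of all probe sets were higher and 2.01% lower, 5.36% in all). With 100 µM at 24 h limma called 0 of the 7, where 3.06% of all probe sets were higher and 2.95% lower, 6.01% in all, and 2 of them, Ahsg and Ambp, had an unadjusted p under 0.05. Alb and Afp passed at neither dose and neither time. The comparisons at 1 time share their DMSO arrays.

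**Figure D1:**
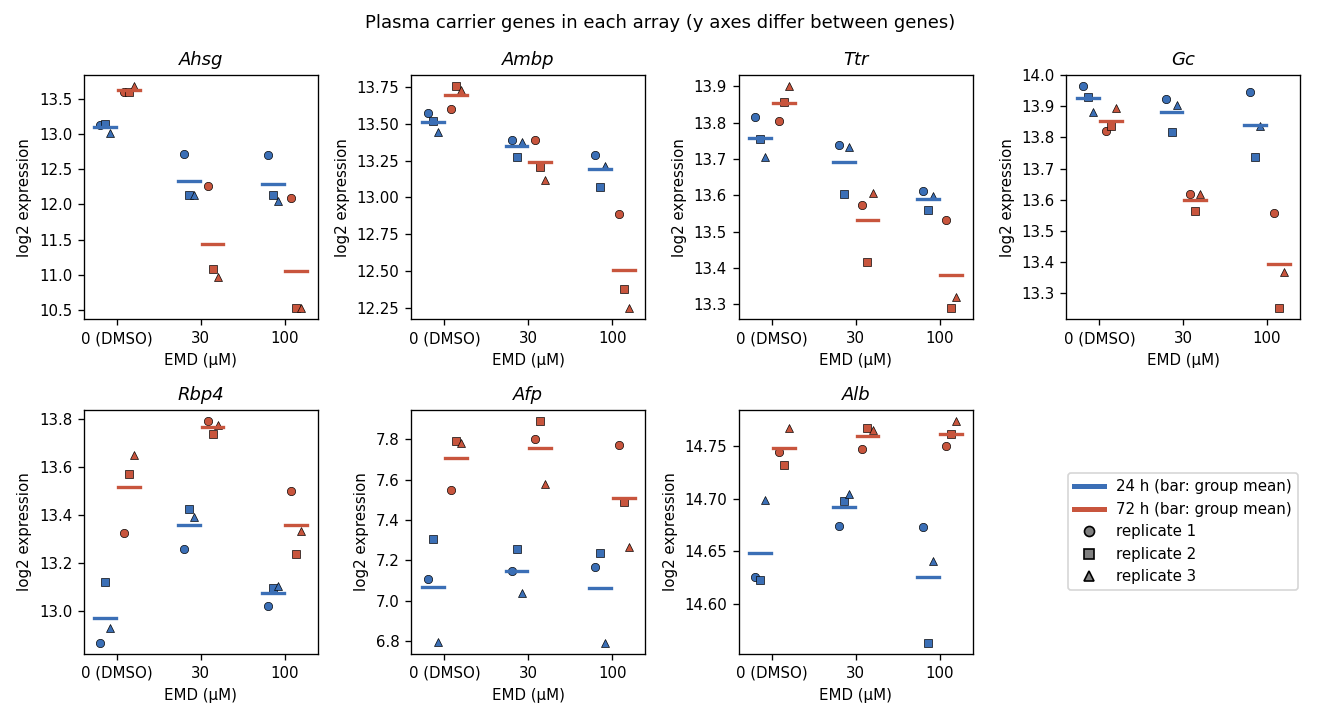
The log2 expression (y axis, a scale of its own for each gene) of the 7 genes in each of the 18 arrays against the dose of EMD in µM (x axis), at 24 h (blue) and 72 h (red), with the replicate number as the symbol and the group mean as a bar. The EMD arrays of Ahsg, Ambp, Ttr and Gc at 72 h lie below all DMSO arrays of that time, and replicate 1 is the highest of the 3 for Ahsg in all 4 EMD groups.

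**Figure D2:**
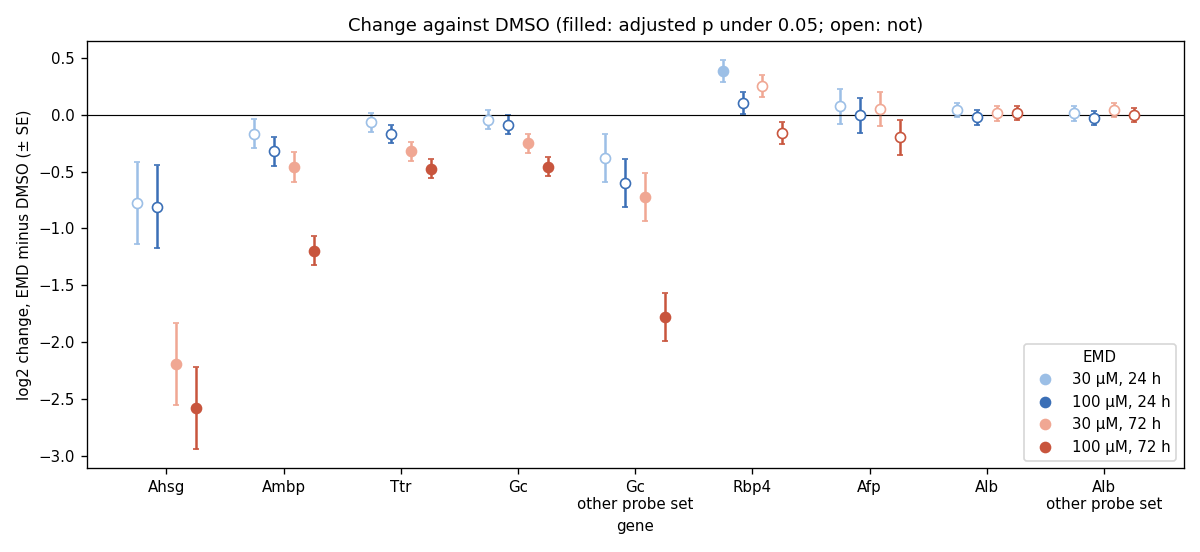
The log2 change of each gene against DMSO (y axis, ± SE, 3 arrays per group), with the other probe sets of Gc and Alb beside the main ones (x axis) and the 4 combinations of dose and time in colour. Filled symbols passed the adjusted p of 0.05. The largest falls were those of Ahsg at 72 h, -2.19 and -2.58, and the symbols of Alb stay between -0.03 and 0.04.

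Ahsg, fetuin-A, had the largest changes of the 7. At 72 h its level in replicates 1, 2 and 3 was 12.26, 11.08 and 10.97 with 30 µM EMD and 12.09, 10.53 and 10.52 with 100 µM, against 13.60, 13.59 and 13.69 with DMSO. All EMD arrays lay below all DMSO arrays, and replicate 1 stood more than 1 log2 unit above replicates 2 and 3 at both doses. The gene fell by 2.19 ± 0.36 with 30 µM (adjusted p = 0.00036), to 21.9% of the DMSO level on the linear scale, and by 2.58 ± 0.36 with 100 µM (adjusted p = 8.57e-05), to 16.7%. The doses overlapped, with a difference of -0.39 ± 0.36 between 100 and 30 µM (adjusted p = 0.71, 95% interval -1.15 to 0.38). At 24 h its level was 12.72, 12.14 and 12.13 with 30 µM and 12.70, 12.13 and 12.05 with 100 µM, against 13.13, 13.15 and 13.02 with DMSO. Here too no EMD array reached a DMSO array, yet the changes of -0.77 ± 0.36 and -0.81 ± 0.36 did not pass in the fit of all groups (adjusted p = 0.30 and 0.26). They passed in a fit of the arrays compared alone (adjusted p = 0.035 and 0.030). In the DMSO cultures Ahsg had a change of 0.53 ± 0.36 between 72 and 24 h that did not pass (adjusted p = 0.33), though the groups did not overlap, and that passed in a fit of those arrays alone (adjusted p = 0.011).

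The arrays numbered 1 bear on several values of Ahsg, so these were computed again without replicate 1 of every group. As that choice was made on the values of Ahsg itself, which were highest there in all 4 EMD groups, larger falls follow from it and the values are given with no test. The changes were then -0.95 with 30 µM and -0.997 with 100 µM at 24 h, and -2.62 and -3.11 at 72 h. The test of whether the effect of EMD was larger at 72 h than at 24 h gave -1.42 ± 0.51 with 30 µM (adjusted p = 0.24) and -1.77 ± 0.51 with 100 µM (adjusted p = 0.14) over all arrays without a replicate block. With the replicate number as a block, a number that the labels tie to no animal, it passed at both doses (adjusted p = 0.038 and 0.017). With array weights it passed at 100 µM (-2.01, adjusted p = 0.016). Leaving out 1 array at a time, with no block, it passed at 100 µM only without replicate 1 of that group at 72 h (-2.29, adjusted p = 0.0061).

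The gene start of Ahsg is shown because this gene moved most. The 250 bases before it, from RefSeq's GRCr8 assembly and written in the direction of the gene, hold the C/EBP letters TTNNGCAA in 2 places, in capitals, 165 to 158 and 60 to 53 bases before the start.
Ahsg (chr11:91632584-91632833, minus strand): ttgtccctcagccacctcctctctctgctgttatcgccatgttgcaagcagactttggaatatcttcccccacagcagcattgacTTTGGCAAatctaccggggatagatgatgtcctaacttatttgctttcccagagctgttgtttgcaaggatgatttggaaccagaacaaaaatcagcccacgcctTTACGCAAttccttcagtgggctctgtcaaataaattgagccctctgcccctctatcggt
The letters TTNNGCAA on either strand were in the 250 bases before 4 of the 7 genes, Alb, Rbp4, Ahsg and Afp, and before 9.22% of the 33469 gene starts in the table. Neither the direct repeat that PPAR binds with RXR, a pair of AGGTCA with 1 base between them, nor the HNF4 letters CAAAGTCCA nor the forkhead letters TGTTTAC were found before any of the 7, and 0.0508%, 0.338% and 3.21% of all starts hold them. A match describes letters and not a bound site, and the lack of a match says only that these letters are not in this window.

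Ambp, the precursor of alpha-1-microglobulin and bikunin, fell further with the higher dose. At 72 h it was at 13.39, 13.21 and 13.12 with 30 µM EMD and 12.89, 12.38 and 12.24 with 100 µM, against 13.60, 13.76 and 13.73 with DMSO. The 3 groups did not overlap, in the order 100 µM, 30 µM and DMSO from low to high. The change was -0.46 ± 0.13 with 30 µM (adjusted p = 0.0197) and -1.20 ± 0.13 with 100 µM (adjusted p = 5.89e-06), the second being 43.7% of the DMSO level. The doses differed by -0.74 ± 0.13 at 72 h, 100 µM minus 30 µM (adjusted p = 0.0069). At 24 h the values were 13.39, 13.28 and 13.38 with 30 µM and 13.29, 13.07 and 13.22 with 100 µM, against 13.57, 13.52 and 13.45 with DMSO. No EMD array reached the DMSO arrays, and the changes of -0.16 ± 0.13 and -0.32 ± 0.13 did not pass (adjusted p = 0.60 and 0.19).

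Ambp was also the only one of the 7 whose response passed the test of a difference between the times in the fit of all groups without a replicate block. Ahsg passed it as well with the replicate number as a block and, at 100 µM, with array weights. With 100 µM the effect on Ambp at 72 h minus that at 24 h was -0.87 ± 0.18 (adjusted p = 0.038), 1 gene of 7 lower, where 0.448% of all probe sets were lower and 0.245% higher, 0.693% in all. With 30 µM it was -0.29 ± 0.18 (adjusted p = 0.54), and limma called 0 of the 7 there, where 0.412% of all probe sets were higher and 0.528% lower, 0.941% in all, with Ttr and Ahsg under an unadjusted p of 0.05. The call at 100 µM was lost without any 1 of 10 of the 12 arrays in it, all but replicate 1 of the 100 µM and DMSO groups at 72 h, at changes from -0.93 to -0.75 and an adjusted p up to 0.11, and in a fit of those 12 arrays (adjusted p = 0.13). The fall at 30 µM and 72 h was lost without replicate 2 or replicate 3 of either group (changes -0.45 to -0.40, adjusted p up to 0.09) and after cyclic loess (-0.39, adjusted p = 0.077), and the difference between the doses without replicate 2 of the 100 µM group (-0.67, adjusted p = 0.057) or in a fit of the 6 arrays compared (adjusted p = 0.11). The fall at 100 µM passed without any 1 array, at -1.39 to -1.07.

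The stretch before Ambp is printed as that of the gene with the largest called difference between the doses on a main probe set. It holds the 169 bases of the window that lie before the outermost annotated start of the gene in GRCr8. None of the 7 motifs searched was found in its window of 250 bases, so it holds no capitals.
Ambp (chr5:81593939-81594107, minus strand): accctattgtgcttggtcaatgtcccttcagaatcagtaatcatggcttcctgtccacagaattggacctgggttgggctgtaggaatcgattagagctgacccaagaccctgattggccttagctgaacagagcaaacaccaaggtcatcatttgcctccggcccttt

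Ttr, the carrier of thyroid hormone and partner of Rbp4, fell at 72 h, with log2 changes smaller on its probe set than those of Ahsg and Ambp on theirs. It was at 13.57, 13.42 and 13.61 with 30 µM EMD and 13.53, 13.29 and 13.32 with 100 µM, against 13.81, 13.86 and 13.90 with DMSO. Every EMD array lay below every DMSO array, while the 2 doses overlapped. The changes were -0.32 ± 0.08 with 30 µM (adjusted p = 0.0105), or 80.0% of the DMSO level, and -0.47 ± 0.08 with 100 µM (adjusted p = 0.000565), or 72.0%. At 24 h Ttr was at 13.74, 13.60 and 13.73 with 30 µM and 13.61, 13.56 and 13.60 with 100 µM, against 13.82, 13.76 and 13.71 with DMSO. The 30 µM arrays overlapped with DMSO and the 100 µM arrays lay below it, and neither change passed (-0.07 ± 0.08, adjusted p = 0.77, and -0.17 ± 0.08, adjusted p = 0.31). The call at 30 µM and 72 h was lost without replicate 2 of that group (-0.26, adjusted p = 0.064), and after cyclic loess (-0.25, adjusted p = 0.073).

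Rbp4, which carries retinol with Ttr, did not fall with Ttr. At 24 h it was at 13.26, 13.42 and 13.39 with 30 µM EMD and 13.02, 13.10 and 13.10 with 100 µM, against 12.87, 13.12 and 12.93 with DMSO. All 30 µM arrays were above all DMSO arrays, and those of 100 µM lay within the range of DMSO. Rbp4 rose by 0.38 ± 0.10 with 30 µM (adjusted p = 0.0264), to 131% of DMSO, and its change with 100 µM was 0.10 ± 0.10 (adjusted p = 0.70). The rise was lost without replicate 1 or 3 of DMSO or replicate 2 or 3 of the 30 µM group (0.33 to 0.37, adjusted p up to 0.12) and in a fit of the arrays compared (adjusted p = 0.088).

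At 72 h Rbp4 was at 13.79, 13.74 and 13.77 with 30 µM EMD and 13.50, 13.24 and 13.33 with 100 µM, against 13.33, 13.57 and 13.65 with DMSO. The 30 µM arrays were the highest of the time, above all arrays of the other 2 groups, which overlapped. Neither dose passed against DMSO, with 0.25 ± 0.10 at 30 µM (adjusted p = 0.092, 95% interval 0.05 to 0.46) and -0.16 ± 0.10 at 100 µM (adjusted p = 0.32, 95% interval -0.36 to 0.05). The doses themselves differed, by -0.41 ± 0.10 for 100 µM minus 30 µM (adjusted p = 0.0305). With Ambp, Rbp4 made 2 of 7 genes called lower at the higher dose, where 1.85% of all probe sets were lower and 1.25% higher, 3.1% in all. The call was lost without any 1 of the 6 arrays but replicate 1 of the 100 µM group (-0.42 to -0.35, adjusted p up to 0.18) and in a fit of those 6 arrays (adjusted p = 0.11). At 24 h the same difference was -0.28 ± 0.10, with no overlap of the doses (adjusted p = 0.95), in a comparison where limma called 0 of the 7 genes and 0 of all probe sets, and where Rbp4 alone of the 7 was under an unadjusted p of 0.05.

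Gc, the vitamin D binding protein, is measured by 2 probe sets. On the main one it was at 13.62, 13.56 and 13.62 with 30 µM EMD and 13.56, 13.25 and 13.37 with 100 µM at 72 h, against 13.82, 13.84 and 13.90 with DMSO. On the other it was at 9.50, 9.42 and 9.23 with 30 µM and 8.97, 7.98 and 8.02 with 100 µM, against 9.97, 10.12 and 10.23 with DMSO. The groups did not overlap on either probe set, whose values correlated across the 18 arrays at a Pearson r of 0.89. Gc fell with 30 µM by 0.25 ± 0.08 on the main probe set (adjusted p = 0.0473) and by 0.72 ± 0.21 on the other (adjusted p = 0.0261). With 100 µM it fell by 0.46 ± 0.08 (adjusted p = 0.000864) and by 1.78 ± 0.21 (adjusted p = 1.71e-05). The log2 change of the dimmer probe set was thus larger in size at both doses. The doses differed on that probe set at 72 h, by -1.06 ± 0.21 (adjusted p = 0.0141), and on the main one the difference of -0.21 ± 0.08 did not pass (adjusted p = 0.22).

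At 24 h Gc was at 13.92, 13.82 and 13.90 with 30 µM EMD and 13.94, 13.74 and 13.84 with 100 µM, against 13.96, 13.93 and 13.88 with DMSO, and the groups overlapped. The changes were -0.04 ± 0.08 and -0.09 ± 0.08 (adjusted p = 0.87 and 0.70), beside -0.38 ± 0.21 and -0.60 ± 0.21 on the other probe set (adjusted p = 0.42 and 0.13). The call on the main probe set at 30 µM and 72 h was lost without any 1 of its 6 arrays (-0.27 to -0.23, adjusted p from 0.083 to 0.14), after cyclic loess (-0.18, adjusted p = 0.22) and in a fit of the arrays compared (adjusted p = 0.079). That at 100 µM passed without any 1 array, at -0.54 to -0.39. The difference between the doses on the main probe set passed without replicate 1 of the 100 µM group at 72 h (-0.29, adjusted p = 0.040), after cyclic loess (-0.37, adjusted p = 0.036), with array weights (-0.23, adjusted p = 0.044) and for the mean of both probe sets (-0.63, adjusted p = 0.023). Without that array the effect of 100 µM on Gc was also larger at 72 h than at 24 h (-0.45, adjusted p = 0.040), against -0.37 ± 0.12 over all arrays (adjusted p = 0.19).

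Alb, albumin, did not pass in any of the 11 comparisons, on a scale with little room. Its main probe set was the brightest of the array in mean level, and the other was second. At 72 h the main probe set was at 14.75, 14.77 and 14.77 with 30 µM EMD and 14.75, 14.76 and 14.77 with 100 µM, against 14.74, 14.73 and 14.77 with DMSO. At 24 h it was at 14.67, 14.70 and 14.70 with 30 µM and 14.67, 14.56 and 14.64 with 100 µM, against 14.63, 14.62 and 14.70 with DMSO. All EMD groups overlapped with DMSO, and the whole span over the 18 arrays was 0.21. The mean lay 0.068 below the highest value of any probe set on any array, 14.77, which is a value of Alb itself. Near that upper end signals may be close to saturation, which was not tested, so differences in Alb mRNA may be larger than its values show.

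At 100 µM and 72 h the change of Alb was 0.01 ± 0.06 (95% interval -0.12 to 0.15), and at 30 µM 0.01 ± 0.06 (95% interval -0.12 to 0.14). At 24 h it was 0.04 ± 0.06 with 30 µM and -0.02 ± 0.06 with 100 µM. After cyclic loess, the change at 100 µM and 72 h was -0.10 (adjusted p = 0.37). The other probe set ran from 14.40 to 14.59, with changes from -0.03 to 0.04 in the 4 comparisons of EMD with DMSO and no call.

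The other bright probe sets bear on how the small changes of Ttr, Gc and Rbp4 can be read. Among the 100 brightest probe sets, which hold the main ones of Alb, Ttr, Rbp4, Gc and Ambp, 27 were called at 100 µM and 72 h, 10 higher and 17 lower, with a median size of change of 0.15. For 30 µM at 72 h these were 24, with 8 higher and 16 lower. In the comparison of the doses at 72 h, 39 of the 100 were called, 31 higher and 8 lower with 100 µM, so that Rbp4 and Ambp were 2 of the 8 lower. Ahsg, on rank 229 of brightness, and Afp, on rank 7475, lie outside this range. Changes on the brightest probe sets may be smaller than those of the mRNA, as said for Alb, which was not tested. The order of sizes of change between the genes may therefore differ from that of their mRNA.

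**Figure D3:**
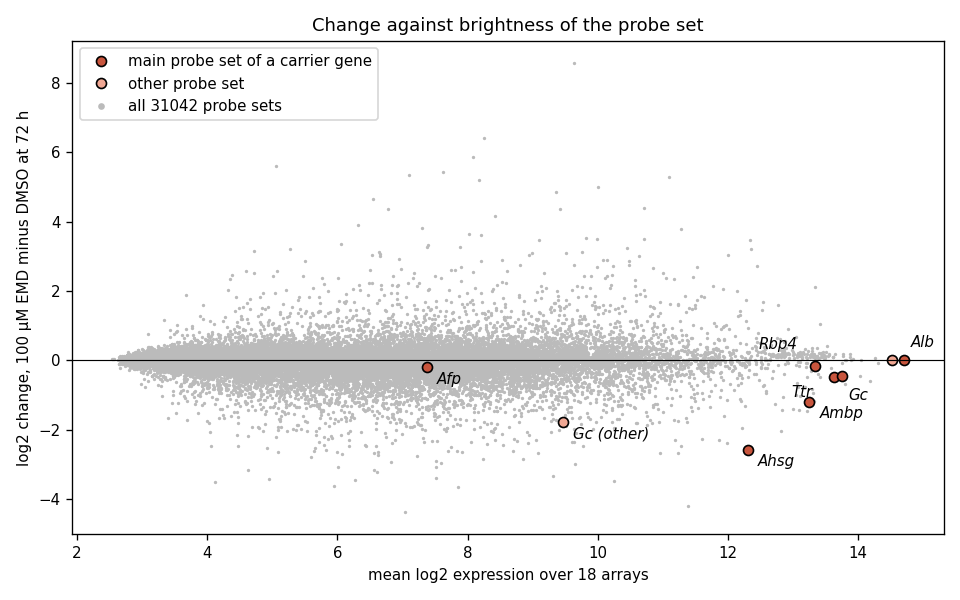
The log2 change with 100 µM EMD against DMSO at 72 h (y axis) against the mean log2 expression over 18 arrays (x axis) for all 31042 probe sets (grey), with the main (dark) and other (pale) probe sets of the 7 genes on top. Alb sits at the right end at 0.01, Ambp at -1.20 and Ahsg at -2.58.

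Afp, alpha-fetoprotein, passed in no comparison of EMD with vehicle and was higher in longer culture. At 24 h it was at 7.15, 7.26 and 7.04 with 30 µM EMD and 7.17, 7.24 and 6.79 with 100 µM, against 7.11, 7.31 and 6.80 with DMSO. At 72 h it was at 7.80, 7.89 and 7.58 with 30 µM and 7.77, 7.49 and 7.27 with 100 µM, against 7.55, 7.79 and 7.78 with DMSO. The groups overlapped at both times, and replicate 3 was the lowest array of each group at 24 h. The changes were 0.08 ± 0.15 and -0.01 ± 0.15 at 24 h and 0.05 ± 0.15 and -0.20 ± 0.15 at 72 h, with 95% intervals that reached from -0.52 to 0.40. Between 72 and 24 h Afp rose by 0.64 ± 0.15 in DMSO cultures (adjusted p = 0.0073) and by 0.61 ± 0.15 with 30 µM (adjusted p = 0.0127), and its change with 100 µM was 0.44 ± 0.15 (adjusted p = 0.068). No array at 24 h reached the arrays of the same treatment at 72 h.

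Afp, Alb and Gc belong to 1 family, and their gene starts are set side by side because of their different records here, with a fall of Gc, a rise of Afp over time and no call of Alb. The HNF1 core GTTAAT, searched on both strands, was in the 250 bases before these 3 of the 7 genes, and before 6.45% of all gene starts. It lies 82 bases before the start of Alb, 194 before Gc and 135 before Afp. For Alb only 186 of the 250 bases lie before the outermost annotated start of the gene. Its distance of 82 is thus counted from a start further inside. The longer HNF1 palindrome, GTTAAT and ATTAAC with 1 base between them, was before none of the 7 and 0.00299% of all. The core is in capitals, with 10 bases on each side, from RefSeq's GRCr8 assembly in the direction of the gene.
Alb (chr14:17907046-17907071, minus strand): ggttagtgtgGTTAATgatctacagt
Afp (chr14:17875765-17875790, minus strand): cccctgtgctGTTAATtattggcaaa
Gc (chr14:18916051-18916076, plus strand): cagtgacaaaGTTAATgattaaaacc
The TATA letters TATAAA were before Rbp4 and Afp, 2 of the 7, and before 12.9% of all starts. No matches of different motifs overlapped in the 7 windows.

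Over time in culture the 7 genes moved in different directions. In DMSO cultures at 72 h against 24 h, Rbp4 and Afp rose, 2 of 7 where 11% of all probe sets rose, and none fell, where 10.7% of all did (21.7% in all). Rbp4 rose by 0.54 ± 0.10 there (adjusted p = 0.000961), and the remaining changes of DMSO cultures were 0.10 ± 0.06 for Alb, 0.10 ± 0.08 for Ttr, -0.07 ± 0.08 for Gc and 0.18 ± 0.13 for Ambp. With 30 µM EMD, Rbp4 (0.41 ± 0.10, adjusted p = 0.0091) and Afp rose, 2 of 7 against 7.45% of all probe sets, and Gc fell by 0.28 ± 0.08 (adjusted p = 0.032), 1 of 7 against 6.15% (13.6% in all). With 100 µM EMD, Ahsg (-1.24 ± 0.36, adjusted p = 0.0325), Gc (-0.45 ± 0.08, adjusted p = 0.00201) and Ambp (-0.69 ± 0.13, adjusted p = 0.00207) fell, 3 of 7 against 5.61%, and none rose, where 6.77% of all did (12.4% in all). The values of Ahsg with 100 µM overlapped between the times, since replicate 1 at 72 h (12.09) was above replicate 3 at 24 h (12.05).

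Some of these calls rest on single arrays. That of Ahsg with 100 µM was lost without any 1 of its 6 arrays but replicate 1 at 72 h (-1.37 to -0.98, adjusted p up to 0.15), in a fit of those 6 arrays (adjusted p = 0.10) and with robust moderation along an intensity trend (adjusted p = 0.068). For 30 µM, the fall of Gc was lost for the mean of its probe sets (-0.26, adjusted p = 0.28), after cyclic loess (-0.27, adjusted p = 0.055) and without any 1 array but replicate 2 at 24 h (-0.29 to -0.26, adjusted p up to 0.11), the rise of Rbp4 without replicate 1 at 24 h (0.36, adjusted p = 0.052), and that of Afp without replicate 2 at 72 h or replicate 3 at 24 h (0.54 and 0.56, adjusted p = 0.064 and 0.054). Without replicate 1 at 72 h Ahsg also passed with 30 µM (-1.31, adjusted p = 0.021) and Ttr with 100 µM (-0.29, adjusted p = 0.030). Without replicate 3 at 72 h Afp passed with 100 µM (0.56, adjusted p = 0.041).

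A measure of RNA quality differed between the times, and between EMD and DMSO at 72 h. The difference between the 3' and 5' control probe sets of beta-actin at 72 h was 0.848 ± 0.041 with 30 µM EMD and 0.847 ± 0.0058 with 100 µM, against 0.698 ± 0.054 with DMSO (SD, n = 3 each). At 24 h it was 1.33 ± 0.053 and 1.29 ± 0.089, against 1.31 ± 0.039. At 72 h every EMD array lay above every DMSO array in this measure, at 0.82 to 0.89 with 30 µM and 0.84 to 0.85 with 100 µM, against 0.64 to 0.73. The values of Ahsg, Ambp, Ttr and Gc split the same arrays. Over the 18 arrays its Pearson r was -0.82 with Alb, -0.79 with Afp and -0.67 with Rbp4, and 0.10, 0.12, 0.11 and 0.52 with Ahsg, Ambp, Ttr and Gc. These r values span both times, between which the measure differed most, so they do not describe the arrays of 72 h alone. The mean level of the 11 hepatocyte markers at 72 h ran from 11.66 to 11.80 with 30 µM and from 11.35 to 11.55 with 100 µM, against 11.64 to 12.25 with DMSO. Of these markers 2 rose and 5 fell with 30 µM, where 7.88% of all probe sets rose and 9.22% fell, and 0 rose and 5 fell with 100 µM, where 7.42% rose and 9.68% fell. Cyp2e1 (1.36) and Apob (0.62) rose with 30 µM, and Serpina1 (-0.98 and -1.18) and Apoa1 (-0.75 and -0.95) fell with both doses. The lowest change of the list with 30 µM was that of Fgb (-1.22), whose mean was 11.53 there, 12.33 with 100 µM and 12.74 with DMSO. The mean of Cyp2e1 was lower at 72 h than at 24 h in both groups of that rise, 5.30 against 9.48 with DMSO and 6.66 against 8.80 with 30 µM. At 72 h 3 and 1 of the 10 stellate cell markers fell with 30 and 100 µM and none rose, where 9.22% and 9.68% of all probe sets fell. Of these 10, 8 lay under the array median. Of the 9 macrophage markers 1 fell with 30 µM and 0 with 100 µM, and no endothelial or cholangiocyte marker was called at that time. The part of RNA quality and of these markers in the changes of the 7 genes was not tested.

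The other carriers and partners in plasma, 20 genes of which 19 were measured, were read from the same fit. At 72 h 1 rose and 7 fell with 30 µM EMD, and 1 rose and 13 fell with 100 µM, with medians of -0.31 and -0.90. Of all probe sets 7.88% rose and 9.22% fell with 30 µM at that time, and 7.42% rose and 9.68% fell with 100 µM. The largest fall was that of Hrg, the histidine-rich glycoprotein, by 2.04 ± 0.37 with 30 µM (adjusted p = 0.000782) and 4.21 ± 0.37 with 100 µM (adjusted p = 6.17e-07). Selenop, which carries selenium, fell by 1.52 ± 0.25 and 2.30 ± 0.25 (adjusted p = 0.000317 and 5.69e-06). Serpina7, which binds thyroxine as Ttr does, rose by 1.84 ± 0.20 with 30 µM (adjusted p = 4.54e-06), from a mean of 3.56 with DMSO to 5.41, near the array median of 5.10. Serpina6, which binds cortisol, rose against DMSO by 1.28 ± 0.40 with 100 µM (adjusted p = 0.0337). Its mean was lower at 72 h than at 24 h in both groups, 5.42 against 9.37 with DMSO and 6.70 against 9.03 with 100 µM. At 24 h only Selenop passed, which fell with 100 µM by 1.32 ± 0.25 (adjusted p = 0.00287). This was 1 of 19, near the share of all probe sets, of which 3.06% rose and 2.95% fell (6.01% in all). With 30 µM at 24 h 0 of the 19 passed, where 5.36% of all probe sets did.

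**Figure D4:**
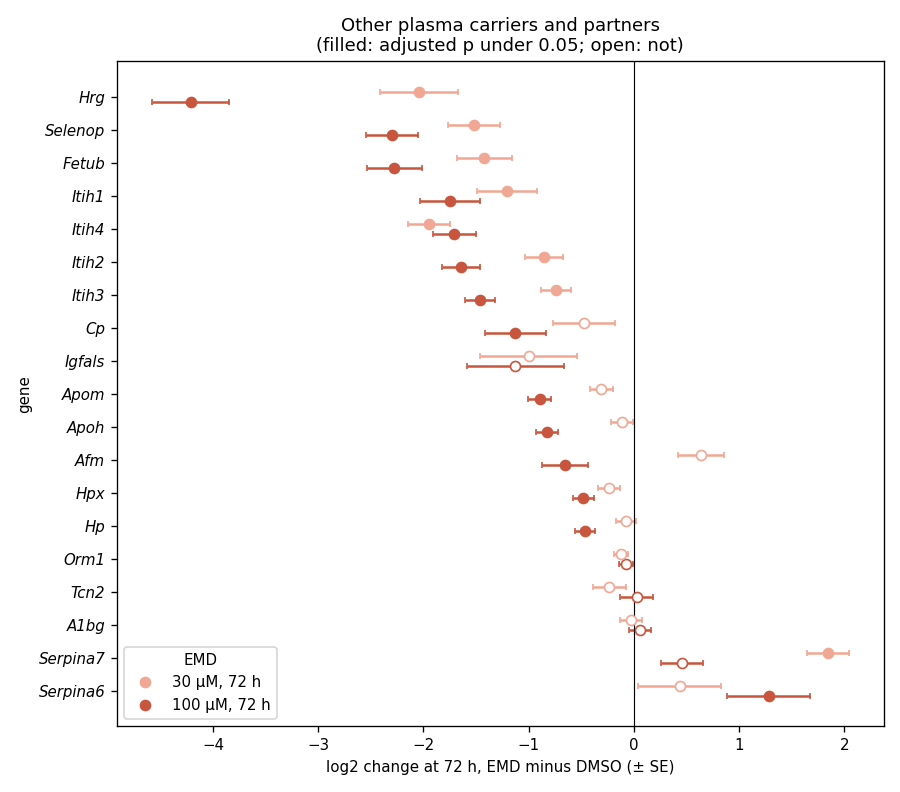
The log2 change at 72 h with 30 µM EMD (pale) and 100 µM EMD (dark) against DMSO (x axis, ± SE, 3 arrays per group) of 19 other plasma carriers and their partners (y axis). Filled symbols passed the adjusted p of 0.05. Hrg lies at -2.04 and -4.21, and Serpina7 and Serpina6 are the genes with a filled symbol to the right of 0.

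Several partners lie close to the 7 genes in function or place. The heavy chains that bikunin joins fell at both doses at 72 h, Itih1 by 1.20 ± 0.29 and 1.75 ± 0.29, Itih2 by 0.86 ± 0.18 and 1.64 ± 0.18 and Itih3 by 0.74 ± 0.14 and 1.46 ± 0.14, as Ambp did. As with Ambp, the doses differed for Itih2 (-0.79 ± 0.18, adjusted p = 0.0259) and Itih3 (-0.72 ± 0.14, adjusted p = 0.013). The effect of 100 µM was larger at 72 h than at 24 h for both (-1.36 ± 0.25, adjusted p = 0.0208, and -1.19 ± 0.20, adjusted p = 0.0112). Neither trait was particular to these partners. Of the 19 other carriers 8 were lower with 100 than with 30 µM at 72 h and 0 higher, where 1.85% of all probe sets were lower. In the effects of 100 µM between the times 6 of the 19 were lower and 0 higher, where 0.448% of all were lower. Itih4, a relative that carries no bikunin, fell by 1.95 ± 0.20 and 1.71 ± 0.20. Fetub, fetuin-B, is the neighbour of Ahsg in the gene table and fell by 1.42 ± 0.26 and 2.28 ± 0.26 (adjusted p = 0.000984 and 1.22e-05). Afm, afamin, neighbours Afp in the albumin gene cluster. At 72 h its change was 0.64 ± 0.22 with 30 µM (adjusted p = 0.054), and it fell by 0.66 ± 0.22 with 100 µM (adjusted p = 0.048). In DMSO cultures it fell over time by 1.77 ± 0.22 (adjusted p = 3.85e-05), where Afp rose.

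Of 14 liver-enriched transcription factors measured of 16, at 72 h 3 rose and 5 fell with 30 µM EMD and 2 rose and 4 fell with 100 µM, where 17.1% of all probe sets were called at each dose. Cebpd fell by 1.86 ± 0.21 and 1.77 ± 0.21 (adjusted p = 7.68e-06 and 1.59e-05), and Cebpb rose by 0.97 ± 0.13 and 0.999 ± 0.13. Cebpa rose by 1.23 ± 0.23 with 30 µM (adjusted p = 0.00127). Zbtb20 and Zhx2, which are known in mouse to hold Afp down after birth, fell with 100 µM by 0.95 ± 0.18 and 0.75 ± 0.10, while Afp had no call in that comparison. With 30 µM at 72 h their means were also lower than with DMSO, 9.27 against 10.10 for Zbtb20 and 6.78 against 7.33 for Zhx2. At 24 h 1 rose and 2 fell with 30 µM, and 1 rose and 3 fell with 100 µM, where 5.36% and 6.01% of all probe sets were called. Foxa2, Cebpd and Cebpb were called at both doses then, Foxa2 at -0.54 ± 0.13 and -0.65 ± 0.13. In DMSO cultures at 72 h against 24 h, Hnf4a fell by 0.62 ± 0.12 and Foxa3 and Prox1 rose by 0.66 ± 0.20 and 0.45 ± 0.15.

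Of 10 genes that handle the cargo of these carriers, measured of 13, Aldh1a1, which oxidises retinal, rose in all 4 comparisons of EMD with DMSO, by 2.52 ± 0.19 and 2.34 ± 0.19 at 24 h and 1.55 ± 0.19 and 1.37 ± 0.19 at 72 h. It also rose in DMSO cultures over time, by 2.49 ± 0.19. Fcgrt, the receptor that returns albumin to the blood, rose in all 4 as well, by 0.99 ± 0.09 and 0.64 ± 0.09 at 24 h and 0.80 ± 0.09 and 0.41 ± 0.09 at 72 h, while Alb had no call. Cyp27a1, which can hydroxylate vitamin D, fell with 100 µM by 0.81 ± 0.21 at 24 h and 0.72 ± 0.21 at 72 h, and Lrp2, an uptake receptor for several of these carriers, fell by 0.91 ± 0.23 with that dose at 72 h. In all, 2 rose and 1 fell with 30 µM at 24 h, 2 and 2 with 100 µM at 24 h, 2 and 1 with 30 µM at 72 h, and 2 and 3 with 100 µM at 72 h, where 5.36%, 6.01%, 17.1% and 17.1% of all probe sets were called.

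Of 9 genes of fetal liver and progenitors measured of 11, 1 passed with 30 µM at 24 h, 1 with 30 µM at 72 h and 2 with 100 µM at 72 h, where 5.36%, 17.1% and 17.1% of all probe sets were called. Epcam rose by 0.92 ± 0.25 with 30 µM at 24 h, Gpc3 by 1.31 ± 0.17 with 30 µM at 72 h, and Aldoa and Dlk1 by 0.39 ± 0.10 and 0.28 ± 0.09 with 100 µM at 72 h, and none fell against DMSO. The means of Gpc3 (4.11 with DMSO and 5.42 with 30 µM) and Dlk1 (4.08 with DMSO and 4.36 with 100 µM) lay near or under the array median of 5.10. Dlk1 was at 4.26 in DMSO cultures at 24 h. Over time in DMSO cultures 2 of the 9 rose and 1 fell, where 11% of all probe sets rose and 10.7% fell. The median change of the 9 was -0.18, beside -0.05 over all probe sets, so the list did not rise with Afp as a whole. Cd24 rose by 4.92 ± 0.35 and Epcam by 1.81 ± 0.25. H19 fell by 0.43 ± 0.09, from 4.64 to 4.21, under the array median at both times.

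Across the 18 arrays the 7 genes formed 2 patterns, given as a description over arrays that share groups and normalization. Ttr, Ahsg, Gc and Ambp correlated with each other at a Pearson r from 0.82 to 0.92. Rbp4 and Afp correlated at 0.81 and Alb and Rbp4 at 0.71, while Alb and Gc had an r of -0.56. The genes most like Ahsg were Gpc4, Kng2l1 and Tmem176a (r = 0.970, 0.969 and 0.968), and those most like Ttr were Tmem176a, Kng2l1 and Ctnnal1 (0.954, 0.942 and 0.939). For Gc they were Serpina4, Itih2 and Vtn (0.976, 0.966 and 0.961), and for Ambp Itih3, Pzp and Cd302 (0.961, 0.958 and 0.957). Masp2, Grcc10 and Pigr were most like Rbp4 (0.970, 0.950 and 0.943), Cox6c, Grcc10 and Tango2 most like Afp (0.923, 0.910 and 0.901), and Zmym3, Mrps28 and Tpgs2 most like Alb (0.917, 0.915 and 0.913).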

How the data were processed

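RNA of 18 rat hepatocyte cultures was measured on Affymetrix rat arrays. The authors deposited log2 values from RMA, which subtracts background, equalises the distributions of the arrays and condenses probes, so a global rise or fall of mRNA cannot be seen. Its software version and the build behind the array annotation were not given in the sources used here. Every value column had a sample. The 57 control probe sets were left out. GEO's platform annotation gave 20826 probe sets 1 symbol, 436 several and 9780 none.

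No value was rescaled. Tests used lmFit and eBayes of limma 3.58.1 under R 4.3.3 (two-sided, 6 groups in 1 fit, Benjamini-Hochberg over 31042 probe sets), tested on simulated data before use. Intervals are at 95%, and the number of arrays limits the precision. The 11 comparisons were EMD against DMSO, dose against dose, time against time, and the effect at 72 h minus that at 24 h. All 7 genes are named, with up to 4 called genes with the largest change per other list and comparison, the genes that the text ties to a member, and for each member the 3 genes with the highest Pearson r. Itih1, Itih2, Itih3, Fetub and Afm, and Zbtb20, Zhx2, Serpina6, Lrp2 and Cyp27a1 where beyond the first 4, were named for their function or place. The members and lists were chosen with earlier results of these data known. Gene starts were read from RefSeq's GRCr8 table, where 7 of 7 genes matched, and neighbours from its gene table. Figures were drawn with matplotlib 3.10.9.

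Alternatives were the replicate number as a block, the arrays compared alone, cyclic loess, equal array medians, array weights, an intensity trend with robust moderation, probe sets above the median, the mean of a gene's probe sets, and each array left out.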

Additional observations from a re-analysis of the deposited data

Results flagged for a closer look

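The effect of 100 µM EMD on Ambp was larger at 72 h than at 24 h, with a difference of -0.87 ± 0.18 on the log2 scale by limma's interaction term (adjusted p = 0.038). At 72 h all 3 EMD arrays lay below all 3 DMSO arrays, at a change of -1.20, and at 24 h they did so too, at -0.32. The call was lost without any 1 of 10 of the 12 arrays (adjusted p up to 0.11) and in a fit of those 12 arrays (adjusted p = 0.13). The cause was not tested.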

How the results depend on the processing

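The falls of Ahsg, Ambp, Ttr and Gc at 100 µM and 72 h kept their call under all 8 other ways of processing, and without any 1 array. The rises of Rbp4 and Afp over time in DMSO cultures did so as well. Calls near the threshold were less stable. After cyclic loess 1 of the 7 genes, Ahsg, passed at 30 µM and 72 h in place of 4. In fits of the arrays compared alone 1 gene passed with 100 µM at 24 h, 0 in the comparison of the doses at 72 h and 0 in that of the effects of 100 µM between the times. With array weights 5 genes passed with 100 µM between the times and 2 in the comparison of the effects of 100 µM. With probe sets above the median 5 passed with 100 µM between the times.

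With the replicate number as a block, Ahsg passed in the comparison of the effects between the times at 30 µM (adjusted p = 0.038, 1 gene called) and at 100 µM (adjusted p = 0.017, 2 called, with Ambp). Each array was set against its group mean and these residuals were correlated to see whether the numbers pair the arrays. Of 18 pairs with the same number at 1 time, 16 correlated over 0.1 (median 0.37, lowest 0.0058), against a median of -0.22 for different numbers. Of 27 pairs with the same number at different times, 23 correlated over 0.1 (median 0.29, lowest 0.0054). Most arrays of the same number thus shared part of their residuals, and the main fit leaves that part in its spread. As 2 of the 18 pairs at 1 time did not, and the labels tie no number to an animal, the block was kept as an alternative. With the block Ahsg also passed between the times at 30 µM (adjusted p = 0.019) and Afp at 100 µM (adjusted p = 0.015), and no other call of the 7 genes changed in the 11 comparisons.

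Values that changed sign were those of genes with no call. After cyclic loess these were Gc with 30 µM at 24 h (0.0159), Afp (0.0238) and Alb (0.00067) with 100 µM at 24 h, and Alb with 100 µM at 72 h (-0.10), between the doses at 72 h (-0.19), with 100 µM between the times (-0.0013) and in the effects of 100 µM between the times (-0.10). With the mean of a gene's probe sets they were Alb between the doses at 72 h (-0.0195) and Gc in DMSO cultures between the times (0.0170). No scaling moved the median of all probe sets by over 0.1.

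With 1 array left out, the count of genes called ran from 0 to 1 for 30 µM at 24 h, 1 to 3 for 30 µM at 72 h, 0 to 3 between the doses at 72 h, 1 to 3 for 30 µM between the times, 2 to 4 for 100 µM between the times and 0 to 3 for the effects of 100 µM. Changes of sign without 1 array were Afp with 30 µM at 24 h (-0.0610 to 0.19) and 72 h (-0.0296 to 0.14), with 100 µM at 24 h (-0.14 to 0.13), between the doses at 24 h (-0.17 to 0.0563) and in the effects of 30 µM between the times (-0.14 to 0.11), Ahsg between the doses at 24 h (-0.24 to 0.16) and 72 h (-0.91 to 0.0266), Gc between the doses at 24 h (-0.0960 to 0.00857), and Alb with 100 µM at 24 h (-0.0468 to 0.00837) and between the doses at 72 h (-0.0044 to 0.0078). The setting without replicate 1 of every group was chosen after seeing the data, on the values of Ahsg, so calls gained in it are not given. In it the change of Rbp4 with 100 µM at 72 h was -0.32, against -0.16 over all arrays, and that of Afp with 30 µM at 72 h was -0.0512. Calls lost in that setting were all of 30 µM, namely Gc against DMSO at 72 h, now at an adjusted p of 0.078, and between the times Gc at 0.092 and Afp at 0.067. Where a group kept 2 arrays, they were assumed to vary like the others.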
